A study of Drosophila melanogaster with 33 samples.

Results

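Male and female heads of 10-day-old wild-type flies were compared, gene by gene and circle by circle. The comparison was between 5 of the 33 libraries of the series, 3 of females (replicates 1 to 3) and 2 of males (replicates 1 and 3), chosen by their sex and age labels. All flies were CantonS (CS in the labels) with no transgene or drug, and they had been allowed to mate before the sexes were separated for ageing. Each library came from pooled whole heads, so it mixes brain, retina, glia, cuticle, muscle and the fat body that lines the head capsule. Total RNA was depleted of ribosomal RNA and sequenced, and the values are normalized reads, that is read counts divided by 1 size factor per library. The labels call the samples biological replicates. The authors left out male replicate 2 of this age as an outlier after principal component analysis, and it was not analysed here. Of 16240 linear genes in the table, 12685 reached a mean of 10 normalized reads over the 33 libraries and were tested, and of 7582 circRNAs 2774 passed a filter on span and reads modelled on the one in the study's methods and applied here to the deposited values.

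Sex in Drosophila is set by the number of X chromosomes. In females the splicing factor Sex-lethal directs splicing of transformer, whose protein with Transformer-2 directs female splicing of doublesex and fruitless, and in males the X chromosome is transcribed at a raised rate by a complex of MSL proteins and the roX RNAs. The adult fat body is the organ with the best known sex-specific output, since in females it makes the yolk proteins that the ovary takes up. CircRNAs are closed loops, made when the splicing machinery joins a downstream exon end backwards to an upstream exon start. They are counted here from the reads that cross such a back-splice junction.

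The 5 libraries held 42051904 to 58464320 linear reads and 47560 to 86362 circRNA reads. Male replicate 1 was the shallowest of them and also had fewer circRNA reads relative to its linear reads than the other libraries. A defining marker of neurons, of photoreceptors and of glia, 1 of each, was present in every library, with a difference of at most 0.11 on the log2 scale (repo). Some other genes of these cell types differed more, with a median of 0.15 over 18 neuronal genes and 0.55 for the glial gene alrm. The neuronal marker elav was at 23510, 23102 and 21835 against 22355 and 23174 normalized reads, female libraries first, and the rhodopsin of the outer photoreceptors, ninaE, at 979861, 955544 and 970076 against 970753 and 965960. The glial marker repo stood at 6079, 5602 and 6238 against 6617 and 6255. The labels were checked with the roX RNAs and the yolk proteins, and both male libraries carried the male pattern. The male libraries differed from each other in the yolk protein genes, which were 6.59 to 45.8 times higher in replicate 1 than in replicate 3.

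In the test (limma on log2 of the value plus 1, called at an adjusted p below 0.05 and a log2 difference beyond 0.5), 796 linear genes were higher in males and 681 were lower, which is 6.28% and 5.37% of those tested. The counts of each gene list below are to be read beside these shares. The spread behind each SE and p was estimated over all 33 libraries in 12 groups of sex and age. It is not the spread of the 5 day 10 libraries alone. When values were scaled to total linear reads instead, the split was 954 higher and 540 lower, and the median over all genes moved from 0.03 to 0.10. Most differences were moderate. The log2 difference was beyond 1 for 443 of the higher and 185 of the lower genes, and beyond 4 for 64 and 8. Each call was then asked of both male libraries, which had to lie outside the range of the 3 females and more than 0.5 from their mean. This held for 731 of the higher and 579 of the lower genes, and 167 calls rested more on 1 male library. The male and female values did not overlap for 54.7% of all genes tested, so separation alone says little with 3 and 2 libraries.

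**Figure D1:**
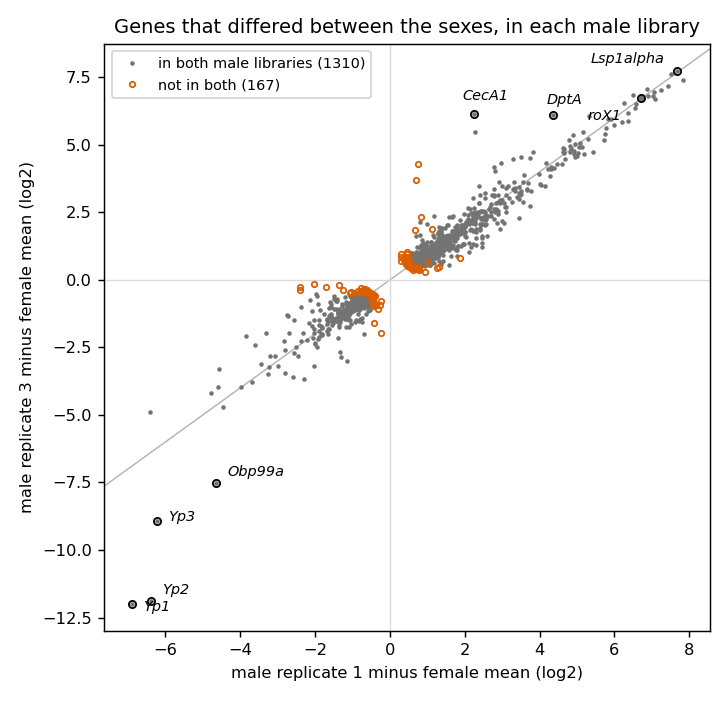
Each point is 1 of the 1477 linear genes called between the sexes at day 10, with the log2 difference from the female mean in male replicate 1 (x axis) and in male replicate 3 (y axis), and the diagonal marks equal values. Filled points are the 1310 genes that passed in both male libraries and open points the 167 that did not, and Yp1, Yp2, Yp3 and Obp99a lie below the diagonal while DptA and CecA1 lie above it.

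The widest gap was in the yolk proteins. Yp1 (FBgn0004045, X:10053811-10055498 of dm6, protein coding) had normalized reads of 749978, 783004 and 635700 in the female libraries and 6054 and 174 in male replicates 1 and 3. Yp2, its neighbour on the X, had 851820, 870710 and 788503 in the female libraries and 10030 and 219 in male replicates 1 and 3, and Yp3, farther along the X, had 960976, 1054230 and 906527 in the female libraries and 13009 and 1975 in male replicates 1 and 3. These 3 genes took 4.05% to 4.70% of all linear reads in the female libraries, 0.0530% in male replicate 1 and 0.00434% in male replicate 3. Their log2 differences were -9.45 ± 0.82 (SE), -9.14 ± 0.82 (SE) and -7.58 ± 0.41 (SE), with adjusted p = 7.97e-09 (Yp1), adjusted p = 1.23e-08 (Yp2) and adjusted p = 2.15e-12 (Yp3). Relative to the female mean, male replicate 1 had 0.837%, 1.20% and 1.34% of the Yp1, Yp2 and Yp3 reads, and male replicate 3 had 0.0241%, 0.0262% and 0.203%. The size of the fold thus depends on the male library used, whereas the side does not. In a fit of the 5 libraries alone the call of Yp2 was lost (adjusted p = 0.0562 in limma). In bulk heads, fewer cells of a type and less RNA per cell cannot be told apart.

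The fat body peptide fit (female-specific independent of transformer), which is released after feeding, followed the same order with 3838, 5207 and 3473 against 517 and 449 (-3.09 ± 0.65 (SE), adjusted p = 0.000918). The odorant-binding protein Obp99a was at 1484, 1908 and 1388 against 62.6 and 7.58, a log2 difference of -6.08 ± 0.56 (SE) (adjusted p = 1.01e-08), and again male replicate 1 stood above replicate 3. The fifth member of the female fat body list, CG14565, was at 33.5, 25.6 and 23.6 against 40.4 and 49.3 and was not called (0.69, adjusted p = 0.0664). Apolipophorin (apolpp), the main lipid carrier of the hemolymph and also made by fat body, did not share the gap, at 722832, 874682 and 668397 against 730190 and 786547 (0.01, adjusted p = 0.97).

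**Figure D2:**
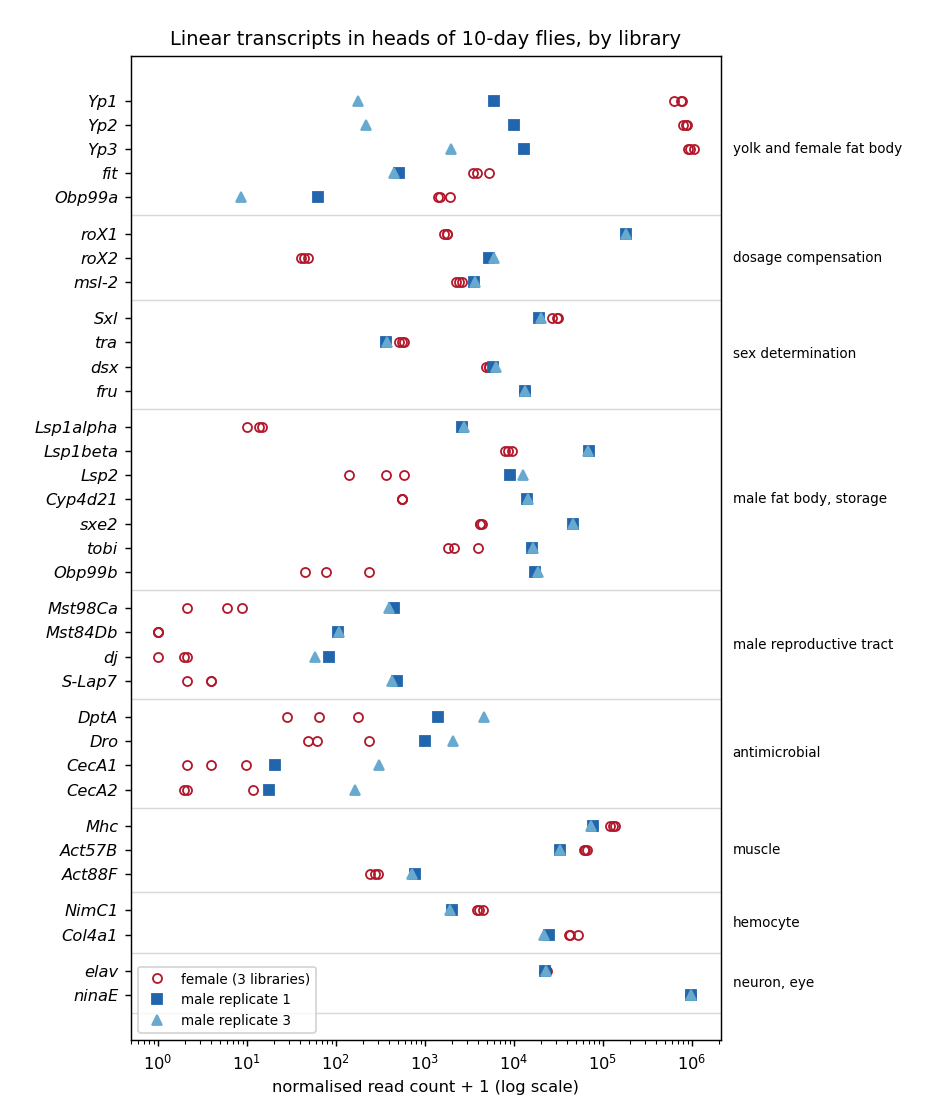
Normalized read count plus 1 on a log axis for genes of 9 groups in each of the 5 libraries, with females as open circles, male replicate 1 as squares and male replicate 3 as triangles. The yolk genes and Obp99a show male replicate 1 between replicate 3 and the females, the antimicrobial genes show male replicate 3 highest, and roX1, Lsp1beta and sxe2 show the male libraries side by side and away from the females.

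The roX RNAs, which guide the MSL complex to the X, were the mirror image. The table gave 1780, 1621 and 1762 in the female libraries and 180696 and 182608 in male replicates 1 and 3 for roX1 (FBgn0019661, X:3857230-3862697), a 106-fold difference on the means (6.72 ± 0.09 (SE) on the log2 scale, adjusted p = 8.89e-28). roX2 was at 43.4, 48.3 and 39.4 against 5225 and 6016, 129-fold apart on the means (6.98 ± 0.30 (SE), adjusted p = 6.43e-15). Both male libraries had nearly the same level of each. Of the 10 genes of the dosage compensation list, the only other one called was msl-2, the subunit whose translation Sex-lethal blocks in females, at 2579, 2265 and 2430 against 3547 and 3627 (0.57 ± 0.06 (SE), adjusted p = 4.75e-08). The remaining 7 were mle, mof, msl-1, msl-3, JIL-1, Clamp and Su(var)2-HP2, with log2 differences from -0.02 (Su(var)2-HP2) to 0.16 (mof) and none of them called. The adjusted p was below the threshold for mle and mof (0.0157 and 0.0272), but their differences were smaller than the 0.5 required.

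Within the sex determination list, 2 of 15 tested genes were called and both were lower in males. Sex-lethal (Sxl) was at 31356, 30530 and 26491 against 19062 and 20384 (-0.58 ± 0.16 (SE), adjusted p = 0.00998), and lost its call without male replicate 1 (-0.53, adjusted p = 0.0919). transformer (tra) was at 514, 579 and 556 against 364 and 373 (-0.57 ± 0.08 (SE), adjusted p = 4.17e-06). The genes at the end of the cascade differed little in their total reads, with doublesex (dsx) at 5266, 5238 and 4896 against 5902 and 6359 (0.26, adjusted p = 0.00645) and fruitless (fru) at 13452, 13314 and 12970 against 13407 and 13437 (0.02, adjusted p = 0.804). Reads per gene do not show which splice form was made. tra2, ix, her, snf, fl(2)d, vir, run, da, gro and emc lay between -0.31 (snf) and 0.06 (da), none of them called.

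Male heads held more RNA of storage proteins and of male fat body genes. Of 6 tested genes of the male fat body list, 5 were higher and 0 lower, all 5 in both male libraries. Cyp4d21, a cytochrome P450 also known as sex-specific enzyme 1, was at 548, 555 and 553 against 14030 and 14527 (25.9-fold on the means, log2 4.69 ± 0.20 (SE), adjusted p = 5.15e-15). sxe2 (sex-specific enzyme 2), which resembles lipases, was at 4385, 4202 and 4154 against 46227 and 45584 (3.43 ± 0.11 (SE), adjusted p = 3.79e-18). tobi, an alpha-glucosidase gene that responds to insulin and glucagon-like signals, was at 2138, 3904 and 1813 against 15931 and 16251 (2.70 ± 0.30 (SE), adjusted p = 2.38e-07). takeout (to), a secreted protein known for male courtship, was at 10534, 13979 and 12839 against 68855 and 73049 (2.52 ± 0.31 (SE), adjusted p = 8.45e-07). The storage proteins are hexamerins best known from larvae. Lsp1alpha had 13.8, 12.8 and 9 in the female libraries and 2597 and 2723 in male replicates 1 and 3, a log2 difference of 7.71 ± 0.40 (SE) (adjusted p = 6.93e-13). Lsp1beta was at 8572, 9606 and 7933 against 68957 and 67978 (2.98 ± 0.19 (SE), adjusted p = 2.14e-11) and Lsp2 at 365, 575 and 138 against 9158 and 12761 (5.13 ± 0.50 (SE), adjusted p = 5.02e-08), whereas Lsp1gamma was lower in males at 122, 129 and 167 against 79.6 and 88.2 (-0.71, adjusted p = 0.00203). The hexamerin family was thus not uniform.

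Genes of the lipid and storage list moved both ways, with 9 of 27 tested higher and 4 lower in males. Over all genes tested 6.28% were higher and 5.37% lower. The higher ones include the storage proteins Lsp1alpha, Lsp1beta and Lsp2 given above, so the counts are not of lipid genes alone. The examples that follow were named after their values were seen. Brummer (bmm), the triglyceride lipase, was at 3879, 4999 and 4561 against 9328 and 9110 (1.05 ± 0.08 (SE), adjusted p = 1.12e-10), ATP citrate lyase (ATPCL) at 27150, 27447 and 26789 against 44235 and 45842 (0.73, adjusted p = 7.75e-08) and the sterol-binding Npc2h at 2055, 2591 and 2378 against 7393 and 7760 (1.70, adjusted p = 6.4e-14). Among the lower genes, the transcription factor sugarbabe (sug) was at 3705, 4445 and 3699 against 1303 and 1500 (-1.49, adjusted p = 1.44e-08), the adipokinetic hormone receptor AkhR at 5035, 5186 and 5090 against 3244 and 3406 (-0.62, adjusted p = 6.21e-08) and the lipid transfer particle Apoltp at 90200, 102529 and 92831 against 53113 and 55223 (-0.81, adjusted p = 1.17e-10). In all 6 of these genes the male and the female libraries did not overlap, as in 1466 of all 1477 genes called.

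The odorant-binding protein family, small secreted carriers of hydrophobic molecules, had 6 of 34 tested members higher and 7 lower, and all 13 calls held in both male libraries. Obp99b had 44.4, 237 and 76.5 in the female libraries and 17332 and 18621 in male replicates 1 and 3, a 151-fold difference on the means (log2 7.57 ± 0.49 (SE), adjusted p = 5e-11), with female replicate 2 the highest female. Its neighbour in name Obp99a went the other way, as given above, and Obp99c and Obp99d were not called. Obp56e was at 109, 88.6 and 74.3 against 11.7 and 18 (-2.54 ± 0.36 (SE), adjusted p = 3.22e-06) and Obp83cd at 511, 553 and 533 against 211 and 188 (-1.41, adjusted p = 2.66e-11). Amylases, the starch-digesting enzymes, were higher in males, with Amy-p at 30.6, 46.3 and 48.4 against 1029 and 1122 (4.68 ± 0.34 (SE), adjusted p = 1.53e-10) and Amy-d at 872, 898 and 909 against 4302 and 5085 (2.39 ± 0.12 (SE), adjusted p = 3.85e-14). The 2 amylase genes are near-identical copies, so how reads were split between them is uncertain. Of 18 tested gut enzymes 3 were higher and 0 lower. The P450 family had 12 of 68 higher and 4 lower, led by Cyp313a1 with 6334, 5947 and 5603 against 29464 and 28900 (2.29 ± 0.11 (SE), adjusted p = 1.97e-14). Over all genes tested 6.28% were higher and 5.37% lower, and the count of lower P450 genes was near that share. Cyp309a1 (1.99 ± 0.15 (SE)) and its neighbour Cyp309a2 (1.49 ± 0.12 (SE)) were also higher in both male libraries, and Cyp6d2 was lower at 64.1, 41.4 and 63 against 14.3 and 24.6 (-1.50 ± 0.31 (SE), adjusted p = 0.00042).

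Genes of one branch of the antimicrobial response were higher in males at this age. Attacins, Cecropins, Diptericins and Drosocin are best known as targets of the Imd pathway, which senses bacterial peptidoglycan, whereas Bomanins are best known as targets of the Toll pathway. This grouping of the antimicrobial list was made after its values were seen. Of the 28 antimicrobial genes tested 14 were higher in males and 0 lower, and 12 of the 14 passed in both male libraries. The 14 comprised 4 of 4 Attacins, 4 of 4 Cecropins, both Diptericins, Drosocin and 3 of 5 others. Of the 12 Bomanins 0 were called by limma, edgeR or DESeq2 (1 at an unadjusted p below 0.05), with log2 differences from -0.43 to 0.41. Drosomycin (Drs), another Toll target, was at 925, 914 and 790.0 against 1025 and 1234 and Metchnikowin (Mtk) at 297, 1660 and 529 against 497 and 707, neither called.

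Diptericin A (DptA) had 63.1, 174 and 27 in the female libraries and 1404 and 4657 in male replicates 1 and 3 (5.23 ± 0.89 (SE), adjusted p = 9.06e-05). Drosocin (Dro) was at 60.2, 233 and 47.3 against 1002 and 2082 (4.03 ± 0.80 (SE), adjusted p = 0.000516). The male libraries lay above every female for both genes, and male replicate 3 was the higher of them. Cecropins A1 and A2 (CecA1, CecA2) were at 2.96, 8.86 and 1.13 against 19.6 and 303 and at 0.986, 10.8 and 1.13 against 17 and 163, and their calls (4.18 and 3.88) were lost without male replicate 3, with log2 differences of 2.24 and 2.29 and adjusted p of 0.287 and 0.133. Male replicate 3 was above replicate 1 in 11 of the 14 called genes, and without it 9 of the 28 were called. The 5 day-10 libraries fitted alone called none of these 4 genes, with adjusted p from 0.0521 to 0.0997 in limma. AttA and AttB are near-identical copies, as are the CecA genes, so the share of each is uncertain.

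Recognition proteins of the same response followed. Peptidoglycan recognition proteins PGRP-SC2 (50.3, 97.5 and 47.3 against 277 and 385), PGRP-SD (786, 996 and 883 against 2396 and 2428) and PGRP-SB1 (1760, 2515 and 1622 against 3549 and 4981) were higher in both male libraries, by 2.39, 1.45 and 1.12 on the log2 scale. The thioester protein Tep4 (0.68) and the Turandot gene TotX (271, 553 and 224 against 895 and 1001, adjusted p = 0.016) completed the 5 of 18 members of this list that were higher. The TotX call was lost when any 1 library was left out, apart from female replicate 2.

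Muscle and blood cell genes were lower in male heads. Of 26 tested muscle genes 15 were lower and 1 higher, and 13 of the 15 passed in both male libraries. Over all genes tested 5.37% were lower and 6.28% higher. The summed level of the list was 644109 to 701176 in females and 438192 to 441774 in males. Myosin heavy chain (Mhc) was at 128566, 118849 and 137120 against 78025 and 73247 (-0.76 ± 0.15 (SE), adjusted p = 0.000465), the muscle LIM protein Mlp84B at 20542, 20132 and 22658 against 9008 and 9927 (-1.16, adjusted p = 3.98e-08), Mlp60A at 5025, 5087 and 5593 against 2579 and 2652 (adjusted p = 9.18e-11) and the actin Act57B at 63649, 61381 and 65810 against 32660 and 33263 (-0.95, adjusted p = 3.45e-11). The exception was Act88F, the flight muscle actin, at 274, 238 and 298 against 771 and 719 (1.47 ± 0.43 (SE), adjusted p = 0.0135), whose call was lost without either male library. With scaling to total linear reads 10 muscle genes were lower.

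Hemocyte genes gave 6 of 12 lower and 0 higher, beside 5.37% lower and 6.28% higher over all genes tested. The phagocytosis receptor NimC1 was at 3819, 4012 and 4461 against 2001 and 1913 (-1.06 ± 0.10 (SE), adjusted p = 8.46e-09), and eater, a related receptor, at 1484, 1381 and 1559 against 870.0 and 818 (-0.80, adjusted p = 0.00136). Collagen IV (Col4a1), made by hemocytes and fat body, was at 42644, 41753 and 52085 against 24774 and 21541 (-0.97, adjusted p = 0.00116), and the clotting protein Hemolectin (Hml) at 20925, 19660 and 23827 against 14783 and 14717 (-0.54, adjusted p = 0.0143). The Hml call was lost without female replicate 3, without either male library and with scaling to total linear reads. The part of cell numbers in these differences was not tested.

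Outside the lists, the female-high genes included enzymes and a matrix protein. The alkaline phosphatase Alp9 had 286, 179 and 174 against 6.52 and 10.4 (-4.49 ± 0.34 (SE), adjusted p = 1.53e-10), phu had 29244, 21898 and 33768 against 1164 and 1783 (-4.27 ± 0.36 (SE), adjusted p = 3.86e-09) and the neprilysin-like Nepl4 had 4924, 4823 and 5309 against 317 and 319 (-3.97 ± 0.12 (SE), adjusted p = 6.34e-19). Nidogen (Ndg), a basement membrane protein, was at 5096, 5477 and 5280 against 553 and 467 (-3.37 ± 0.14 (SE), adjusted p = 8.91e-16), and Rootletin (Root), a protein of the ciliary rootlet, at 5604, 5833 and 6251 against 629 and 632 (-3.22 ± 0.18 (SE), adjusted p = 3.39e-13). CG10073 (379.8, 436 and 298 against 27.4 and 25.6, -3.74) and the long noncoding RNA CR44468 (217, 173 and 198 against 17 and 21.8, -3.28) completed the 12 largest of those with a mean of at least 100 reads. In each of these 7 genes both male libraries lay below every female library, which the rule for naming them required.

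Male libraries also held RNA of genes known from spermatogenesis and of Y-linked genes, and its source was not tested. S-Lap7 and S-Lap3, sperm leucylaminopeptidases, had 2.96, 2.95 and 1.13 against 487 and 425 and 1.97, 1.97 and 2.25 against 363 and 342 (7.15 and 6.85 on the log2 scale, adjusted p = 4.61e-05 and adjusted p = 0.000357). Mst98Ca, one of the male-specific transcripts of spermatogenesis, was at 7.89, 4.92 and 1.13 against 453 and 399 (6.47 ± 1.21 (SE), adjusted p = 0.000184), Mst98Cb at 0, 1.97 and 0 against 106 and 82.5 and the sperm tail gene don juan (dj) at 0, 0.985 and 1.13 against 83.5 and 56.9. Mst84Db was at 0 in every female library and at 104 and 107 in the males, at least 34.1-fold higher when each female library is set at a floor of 3 reads. CG17377, CG10859 and the long noncoding RNA CR9284 were likewise at 0 in all females, at least 41.5-fold, 39-fold and 34-fold higher in males. CG33340 (1.97, 0 and 0 against 326 and 243), CG3124 (0, 0 and 2.25 against 254 and 214) and CG12860 (0, 0 and 1.13 against 172 and 132) had fewer than 3 normalized reads in every female library.

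Of the 14 tested genes of the male reproductive tract list 5 were higher and 1 lower, and its summed level was 1163 to 1271 in females and 2184 to 2197 in males. Genes of spermatogenesis that fell below the test's mean were also read in males, such as ocn with 0 in every female library and 84.8 and 67.3 in the males. Others were read in both sexes and were not called, with Mst77F at 360, 376 and 340 in females and 466 and 416 in males, and the dynein gene Dic61B at 137, 143 and 155 against 175 and 178. Several accessory gland genes were at or near 0 in males too. The sex peptide gene SP was at 0 and 1.90, Acp26Aa at 1.30 and 0 and EbpII at 0 and 0 in male replicates 1 and 3, while Acp36DE had 256 to 322 in females and 245 and 302 in males. Dup99B, a peptide of the ejaculatory duct, was lower in males at 28.6, 14.8 and 13.5 against 7.83 and 6.64 (-1.20, adjusted p = 0.00783). Of the 11 tested genes of the ovary list 1 was higher and 0 lower in males. The summed level of the list was above both males in every female library (1894 to 1984 against 1678 to 1689). Most of that sum came from grk, at 1422, 1430 and 1451 against 1150 and 1215 and not called, so the sum does not describe the list as a whole. Of 7 tested Y-linked genes 6 were higher in males. The dynein gene kl-2, a male fertility factor, was at 0 in the females and at 23.5 and 28.4 in the males, at least 8.38-fold higher. The 5 others were Su(Ste) repeat copies, which share sequence, so their single values are uncertain.

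Genes of the nervous system and the eye are read here beside the 6.28% (higher) and 5.37% (lower) called over all genes. Of 18 neuronal genes 1 was higher (ple, tyrosine hydroxylase, 2790, 2859 and 2852 against 4148 and 4739, 0.65) and 0 lower. Of 31 genes of the photoreceptor list 0 were higher and 1 lower (ninaD, -0.95). Of 13 genes of the glial list 1 was higher (alrm, 0.55) and 1 lower (vkg, -0.63). The ple call was lost without male replicate 3 (0.55, adjusted p = 0.124) and the alrm call without male replicate 1 (0.48, below the 0.5 required). Of the neuronal genes 17 of 18 had a log2 difference above 0, with summed levels of 684127 to 703181 in females and 767522 to 774931 in males. A difference above 0 was also seen in 11 of 13 glial genes and in 13 of 31 photoreceptor genes. The median over all genes tested was 0.03, and the share of all genes above 0 was not counted. By limma, edgeR and DESeq2 alike, 0 of the 10 clock genes and 0 of the 17 odorant and pheromone receptors were called, while 6 and 2 of them had an unadjusted p below 0.05 in limma. The clock gene timeless (tim) came nearest, at 35478, 35632 and 36881 against 49996 and 48192 (0.45, adjusted p = 1.9e-09), short of the 0.5 required but past it (0.52) with scaling to total linear reads. Of 28 neuropeptide genes, only the insulin-like peptide Ilp3 was called, lower in males at 959.8, 958 and 1064 against 634 and 546 (-0.75, adjusted p = 1.25e-07). The chaperone Hsp83 was lower at 38337, 41941 and 42186 against 28737 and 27069 (-0.55, adjusted p = 0.000204).

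The sex difference at day 10 was set against those at day 0 and day 30, each in its own libraries. Of the 796 genes higher in males at day 10, 164 (20.6%) were also higher at day 0 and 240 (30.2%) at day 30. These were 58.4% of the 281 higher at day 0 and 46.4% of the 517 higher at day 30. Of the 681 lower genes, 147 (21.6%) were also lower at day 0 and 464 (68.1%) at day 30, which were 38.8% of 379 and 44.7% of 1038. At all 3 ages 68 genes were higher and 121 lower. Opposite calls were made for 35 genes at day 0 and 32 at day 30. The difference between ages was tested by an interaction term, which called 807 genes (6.36%) between days 10 and 0 and 727 (5.73%) between days 10 and 30, against 660 (5.20%) called for sex at day 0 and 1555 (12.3%) at day 30.

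Several storage protein and antimicrobial genes differed between the sexes more at day 10 than at days 0 and 30. Lsp1alpha had sex differences of -1.10, 7.71 and 1.77 at days 0, 10 and 30, Lsp2 of -0.39, 5.13 and -1.78, and Lsp1beta of -0.33, 2.98 and -1.81. Obp99b went from -0.63 to 7.57 and 2.78, and DptA from -0.51 to 5.23 and -0.77. Interaction terms were called against both ages for all 5 genes. These 5 were named for the size of their difference at day 10, which the interaction term uses again. The muscle actin Act57B was -0.54, -0.95 and 0.37, with the interaction called against day 30. By contrast Cyp4d21 (3.11, 4.69, 4.59), roX1 (9.25, 6.72, 5.66) and the yolk genes (Yp2 -9.16, -9.14, -13.67) kept 1 direction at all 3 ages, although their size also changed, with interactions called against day 0 for Cyp4d21, against both ages for roX1 and against day 30 for Yp2. For Yp2 the day 10 difference was -6.38 in male replicate 1 and -11.9 in male replicate 3, so the size of its change depended on the library. Of the 28 antimicrobial genes, 0 were higher and 1 lower at day 0 by limma, and 2 were higher and 4 lower at day 30.

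**Figure D3:**
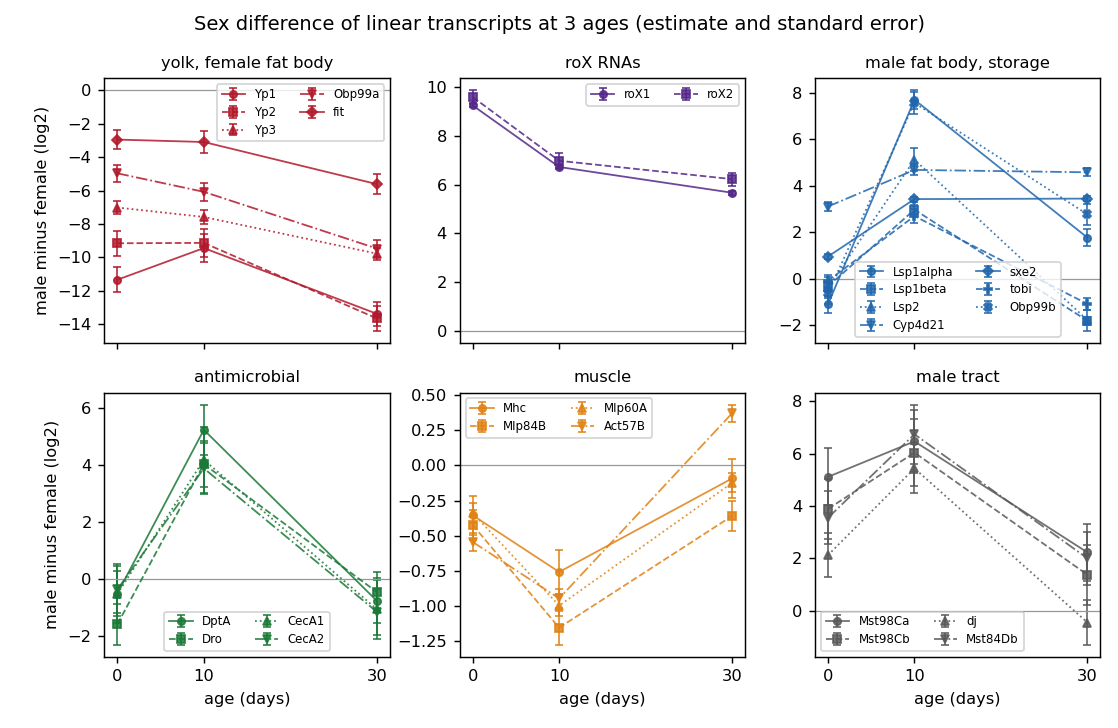
Log2 difference of males minus females at days 0, 10 and 30 for genes of 6 groups, as the limma estimate with its standard error (bars). Of these 3 ages, day 10 has the largest differences for Lsp1alpha, Lsp1beta, Lsp2 and the antimicrobial genes shown, for example DptA at -0.51, 5.23 and -0.77. Cyp4d21 (4.69 and 4.59) and sxe2 (3.43 and 3.46) are similar at days 10 and 30. The yolk genes stay below 0 and the roX RNAs above 0 throughout.

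The total of circRNA reads did not differ between the sexes beyond the spread of the male libraries. The summed level of the 2774 circRNAs was 74758, 74235 and 70918 normalized reads in the female libraries and 56925 and 74763 in male replicates 1 and 3, so male replicate 1 alone stood apart. The means were 73304 ± 2082 (SD, n = 3) and 65844 ± 12613 (SD, n = 2), and the exact permutation test of the difference of -7460 gave p = 0.4 (two-sided, and 0.1 is the smallest p that 3 against 2 samples allow). Without male replicate 1 the difference was 1459, with the opposite sign. Its circles detected numbered 1906 against 2128 to 2248 in the other libraries. Calls on single circRNAs were therefore read with and without this library.

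By limma 10 circRNAs (0.360% of those tested) were higher and 60 (2.16%) lower in males. In both male libraries 10 and 54 passed. Of the called circles, 21 of the lower were at 0 in both males and 2 of the higher at 0 in all 3 females. These passed the filter on reads only through some sample of at least 10 reads. The groups did not overlap for 21.7% of all circRNAs. Without male replicate 1 the counts were 4 and 21, and without male replicate 3 they were 3 and 90. Without female replicate 1 or 2 the lower calls numbered 38 and 36, and without female replicate 3 the higher calls numbered 6. The 5 libraries fitted alone called 0 and 0, with 81 and 187 at an unadjusted p below 0.05, and edgeR called 18 and 48 and DESeq2 23 and 45 on the recovered reads. None of the 6 circles with the most reads was called. circMbl from muscleblind (mbl), the splicing factor gene known for its abundant circle, was at 11283, 11538 and 8929 against 7164 and 10719 (-0.26, adjusted p = 0.778) and the circle of bitesize (btsz) at 3821, 3695 and 3816 against 3072 and 3781 (-0.15, adjusted p = 0.429). Next came circles whose host identifiers had no match in the annotation used here, so no gene name is given. That of FBgn0028993 was at 2009, 1975 and 1762 against 1330 and 1731, and that of FBgn0259247 at 1354, 1272 and 1109 against 685 and 958. The circle of Wbp2 was at 926, 1049 and 859 against 888 and 1288 and that of Plexin A (PlexA) at 778, 886 and 769 against 524 and 771. The FBgn0259247 circle had both male values below every female value but missed the threshold (-0.61, adjusted p = 0.0748), while its ratio to the linear reads of its host was called lower (-0.56, adjusted p = 0.00317).

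Circles from the X chromosome were lower in males, whereas their host genes differed little. Of the 60 lower circles 38 were X-linked, 8 of these at yolk protein positions and 30 elsewhere on the X, while 0 X-linked circles were higher. Leaving out 17 circles at the yolk genes, 30 of 471 X-linked circles were lower (6.37%) against 17 of 2157 on chromosomes 2 and 3 (0.788%). Without male replicate 1 these counts were 12 and 3, and without male replicate 3 they were 35 and 44, so the numbers on both sides depend on which male library is used. Over all X-linked circles the median log2 difference was -0.46, against -0.02 for those of chromosomes 2 and 3 and -0.14 for 127 circles of chromosome 4. The X-linked median minus the autosomal one was -0.44, and -0.18 with a pseudocount of 10. With a mean of at least 10 reads, which leaves 157 X-linked and 738 autosomal circles, the medians were -0.52 and -0.06, and 129 of the 157 were below 0. Their host genes had median log2 differences of 0.01 (X) and 0.12 (chromosomes 2 and 3), counted once per circle. Over all linear genes the medians were -0.06 for 2036 X-linked genes and 0.04 for 10425 of chromosomes 2 and 3.

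The gap was present in each male library. In male replicate 1, where circles were low in general, the medians were -0.57 for X-linked and -0.23 for autosomal circles, and in male replicate 3 they were -0.28 and 0.11. The X-linked share of circRNA reads within a library does not depend on its scaling. It was 11.6%, 11.6% and 12.0% in the female libraries and 9.25% and 9.06% in the male libraries, so the male mean was 0.781 of the female mean (exact permutation p = 0.1, the smallest possible). For the linear reads of the 1038 host genes, of which 183 are X-linked, the X-linked share was 15.3% to 15.6% in females and 14.8% to 15.0% in males, a ratio of 0.962. In the libraries of the other ages the X-linked share of circRNA reads was 11.3% to 12.1% in the 15 of females and 8.57% to 9.57% in 12 of the 13 of males. The exception was male replicate 1 of day 20, with 11.2%.

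**Figure D4:**
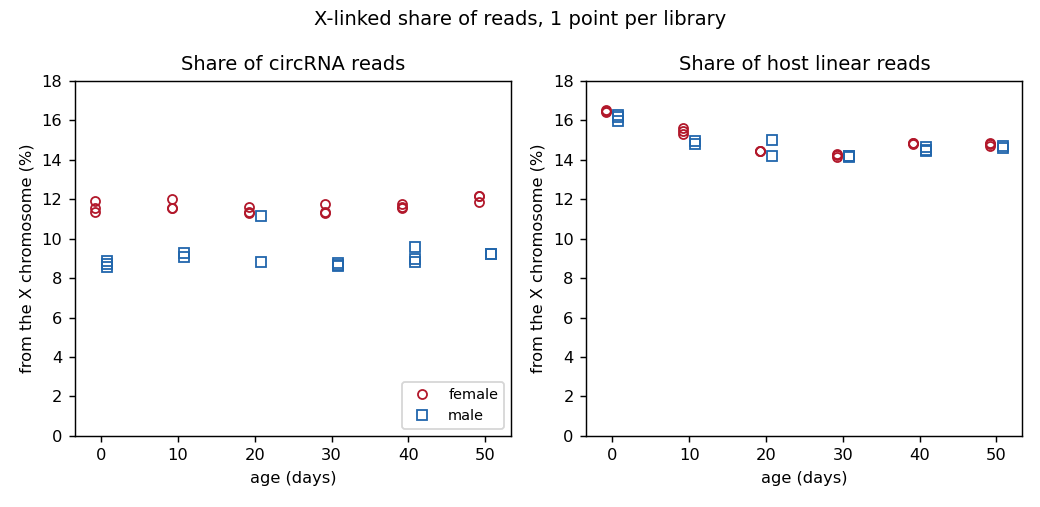
Share of circRNA reads (left) and of the linear reads of their host genes (right) that come from the X chromosome, in percent, with 1 point per library at each of 6 ages, females as circles and males as squares. At day 10 the circRNA shares are 11.6% to 12.0% in females and 9.06% and 9.25% in males, whereas the host shares differ by less than 1 percentage point.

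**Figure D5:**
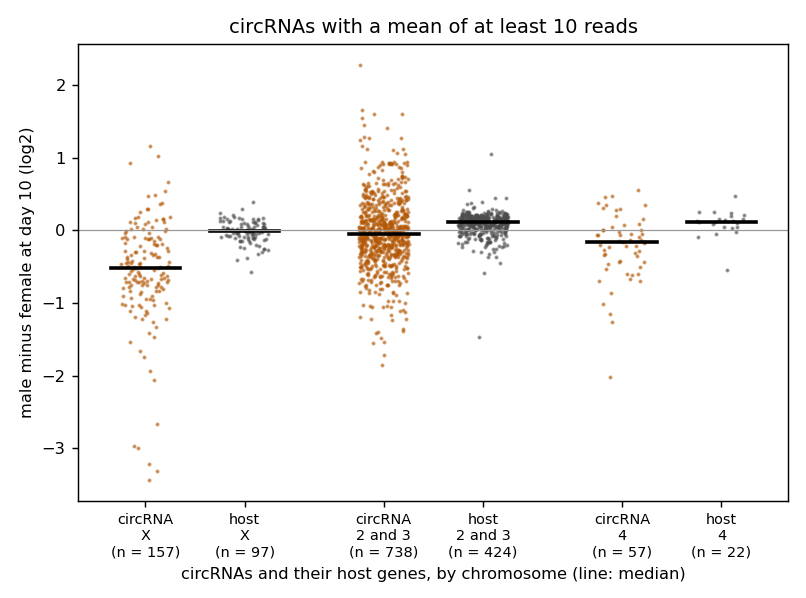
Log2 difference of males minus females at day 10 for circRNAs averaging 10 or more normalized reads and for their host genes, each gene once, by chromosome, with the median as a bar. The 157 X-linked circles have a median of -0.52 and the 738 circles of chromosomes 2 and 3 one of -0.06, while the host genes of both lie close to 0.

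Among the single X-linked circles, those of a potassium channel, a lipid droplet protein and a mitochondrial enzyme were lower in both male libraries. A circle of SK, a calcium-activated potassium channel, had 153, 126 and 142 in the female libraries and 35.2 and 75.8 in male replicates 1 and 3 (-1.42 ± 0.23 (SE), adjusted p = 0.000286), while the linear reads of SK differed by -0.12. One of Lsd-2, a perilipin of lipid droplets, had 135, 122 and 163 against 40.4 and 46.4 (-1.66 ± 0.28 (SE), adjusted p = 0.000286; host -0.27), and one of slgA, proline dehydrogenase, 37.5, 50.2 and 64.1 against 13 and 9.48 (-2.06 ± 0.36 (SE), adjusted p = 0.000426; host 0.02). Circles of mamo (136, 119 and 110.3 against 43 and 61.6), oc (137, 129 and 101 against 52.2 and 56.9) and ct (171, 121 and 156 against 70.4 and 65.4), all transcription factor genes, were lower, with log2 differences of -1.22, -1.14 and -1.11. The most abundant of the called circles came from dlg1, a scaffold of synapses and septate junctions, at 818, 867 and 795 against 424 and 609 (-0.70 ± 0.13 (SE), adjusted p = 0.000519), and male replicate 3 was within 0.5 of the female mean. A circle of Tlk, a protein kinase, was at 36.5, 33.5 and 31.5 against 3.91 and 2.84 (adjusted p = 0.00133), and one of Hk, the Shaker channel beta subunit, at 30.6, 19.7 and 13.5 against 0 and 2.84 (-3.43 ± 0.77 (SE)). Over the 26 lower X-linked circles with a tested host (22 genes, without the yolk positions) the median was -1.80 for the circles and -0.03 for the hosts, whose values ran from -0.81 to 0.30.

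The bases at the ends of 4 of these X-linked circles are shown for the letters that flank the junction. For each, the first run holds 20 bases before and 20 within the 5' end of the circle and the second 20 within and 20 after its 3' end, on the strand of the gene, with the 2 bases next to each end in capitals (genome of Release 6, dm6 coordinates).
SK chrX:5351829-5353004, 5' end: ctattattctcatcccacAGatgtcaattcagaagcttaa
SK, 3' end: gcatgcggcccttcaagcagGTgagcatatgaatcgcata
Lsd-2 chrX:15073341-15074374, 5' end: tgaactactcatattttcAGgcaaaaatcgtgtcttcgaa
Lsd-2, 3' end: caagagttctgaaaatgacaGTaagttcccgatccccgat
Yp1 chrX:10054516-10054707, 5' end: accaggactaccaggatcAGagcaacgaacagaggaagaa
Yp1, 3' end: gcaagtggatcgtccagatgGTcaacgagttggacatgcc
Yp3 chrX:13759716-13759987, 5' end: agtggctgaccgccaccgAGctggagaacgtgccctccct
Yp3, 3' end: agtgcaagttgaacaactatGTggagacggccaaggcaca
Of the 2221 tested circles whose sequence was read (those of 1 chromosome arm were not), all have AG before and GT after on one of the strands, letters that find_circ requires of a junction, so this share is set by the detection. SK and Lsd-2 meet annotated exons at both ends, as do 23 of the 30 lower X-linked circles outside the yolk genes. Neither end of the Yp1 circle or of the Yp3 circle shown is an annotated exon end, whereas both ends of a second called Yp3 circle, chrX:13759869-13760251, are.

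Circles at the yolk genes were at or near 0 in males. The Yp1 circle was at 29.6, 35.5 and 24.8 against 0 and 0, at least 8.86-fold higher in females when each male library is set at a floor of 3 reads, and the Yp3 circle shown at 17.8, 20.7 and 15.8 against 0 and 0, at least 5.35-fold. The second Yp3 circle was at 4.93, 8.86 and 11.3 against 0 and 0 (adjusted p = 0.00468). An 80-base circle assigned to no gene, chrX:10055355-10055434, lies within Yp1 and was at 97.7, 121 and 79.9 against 2.61 and 0. A pair of circles assigned to the antisense RNA CR45601 of the same locus (chrX:10054078-10054274 and chrX:10054663-10054931) was at 0 in both males. Male replicate 1, which carried more linear yolk reads than replicate 3, was at 0 in all of these but the 80-base one. Linear yolk reads were high in the same libraries, and their part in the junction reads was not tested. The circles at 0 in both males passed the filter on reads only through some sample of at least 10 reads, which a female day 10 library met. Their calls are thus a description and not a test.

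One circle of fruitless and one of doublesex were each read in 1 sex. They were singled out after their values were seen, among 11 tested circles of fru, dsx and Sxl. Each was at 0 in every library of the other sex, so it passed the filter on reads only through the sex that had them. The counts of libraries with reads and the adjusted p-values given below are thus a description and not a test. The fru circle chr3R:18513451-18515343 was at 12.8, 3.94 and 7.88 against 0 and 0 (-3.08 ± 0.79 (SE), adjusted p = 0.023), with host reads that differed by 0.02. It covers exactly the longer form of an exon that 4 annotated transcripts contain, whereas 4 others end the same exon at 18515052 and so keep only 292 of its 1893 bases. In females Transformer is known to select the far splice site of that exon through short repeats. Across all ages the circle had reads in 17 of 18 female libraries (2 of which hold identical back-splice reads) and in 0 of 15 male libraries.

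The dsx circle chr3R:7930171-7935905 was the opposite, at 0, 0 and 0 against 3.91 and 1.9, which was not called at day 10 (1.92 ± 0.73 (SE), adjusted p = 0.2). It joins exon 4 of the 3 transcripts dsx-RA, dsx-RD and dsx-RE to exon 3. The alternative exon that starts at 7934482 in 3 other transcripts, known to be used in females, lies within this span, and back-splice reads do not show whether the circle holds it. It had reads in 13 of 15 male libraries and in 0 of 18 female libraries. Exon 2 of dsx (chr3R:7959752-7961122), shared by both sexes, gave a circle with 13.8, 8.86 and 5.63 against 5.22 and 14.2, where the groups overlapped. The ends of both sex-limited circles are shown as before.
fru chr3R:18513451-18515343, 5' end: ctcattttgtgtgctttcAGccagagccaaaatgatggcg
fru, 3' end: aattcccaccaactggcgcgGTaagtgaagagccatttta
dsx chr3R:7930171-7935905, 5' end: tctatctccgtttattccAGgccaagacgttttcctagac
dsx, 3' end: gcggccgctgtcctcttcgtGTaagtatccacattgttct
The longest word that the span of the fru circle shares with at least 3 places in the span of the dsx circle is TCTTCAATCAACA, 13 bases long, which is known as the repeat through which Transformer and Transformer-2 act. It was searched on both strands in the genomic spans of the same 2221 circles and occurred in those of 2 (0.0900%), the circles it was taken from. It stands 1 time in the fru span and 3 times in the dsx span, there within the annotated exon that starts at 7934482. The copies are shown with 10 bases on either side and the repeat in capitals.
fru chr3R:18513640-18513652: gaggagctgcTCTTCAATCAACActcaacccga
dsx chr3R:7935347-7935359: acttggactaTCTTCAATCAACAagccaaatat
dsx chr3R:7935290-7935302: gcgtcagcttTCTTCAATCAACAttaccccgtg
dsx chr3R:7935212-7935224: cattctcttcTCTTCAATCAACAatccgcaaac
A match of letters is a description of these spans and not a measurement of binding.

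The 10 circles higher in males were autosomal. The largest were of CG3036 (0, 0 and 0 against 6.52 and 10.4), of dystrophin (Dys, 0, 0 and 0 against 11.7 and 3.79) and of Pura (0, 6.89 and 0 against 7.83 and 11.4), all with few reads. The CG3036 and Dys circles, at 0 in these females, passed the filter on reads only through some sample of at least 10, which a male day 10 library met. Their calls are thus a description and not a test. P5CS, an enzyme of proline synthesis, had a circle at 9.86, 2.95 and 13.5 against 35.2 and 46.4 (2.28 ± 0.54 (SE), adjusted p = 0.0115), Sarm, a gene of axon degeneration, one at 20.7, 5.91 and 18 against 44.3 and 42.7 (1.65 ± 0.41 (SE), adjusted p = 0.0175) and l(2)41Ab one at 3.95, 5.91 and 2.25 against 15.7 and 13.3 (1.68, adjusted p = 0.0215). Their hosts differed by -0.07 (P5CS), 0.05 (Sarm) and 0.52 (l(2)41Ab). On chromosome 4, 3 circles of bent (bt), which encodes the giant muscle protein projectin, were lower, with log2 differences from -1.01 to -0.62, and the linear reads of bt differed by -0.55. Among the other lower circles outside the X, a pair that the table assigns to no gene lies within the annotated span of ninaE (chr3R:19886255-19888206). Of these, chr3R:19886301-19886514 was at 0 in both males, at least 3.51-fold lower there, and chr3R:19886301-19886520 was at 121, 107 and 91.2 in females and 27.4 and 45.5 in males (-1.56, adjusted p = 0.0259).

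When each circle was divided by the linear reads of its host, 13 ratios (0.501%) were higher and 40 (1.54%) lower in males of 2594 tested. Of the 40, 23 were X-linked. Median log2 differences of the ratio were -0.41 for X-linked and -0.14 for autosomal circles. Of the 13 higher ratios 3 were yolk circles at 0 in males, whose ratio depends on the added 1 read and is no measurement. Without male replicate 1 the counts were 7 and 9, without male replicate 3 they were 3 and 94, and without female replicate 1 or 3 the lower ones numbered 20. At days 0 and 30 limma called 92 and 58 circRNAs between the sexes, 13 and 25 of them called in the same direction at day 10. Median differences of X-linked and autosomal circles were -0.13 and 0.12 at day 0 and -0.19 and 0.20 at day 30. The interaction of sex with age was called for 0 circles against either age by limma (336 and 228 at an unadjusted p below 0.05).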

How the data were processed

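Heads of CantonS flies of 2 sexes and 6 ages were profiled by total RNA sequencing in 33 libraries. The authors aligned reads with STAR to dm6, counted linear genes with featureCounts and back-splice reads with find_circ2, and deposited 1 table of signal values, which are these counts divided by a DESeq2 size factor per library. The strand setting of the counting is not given in the sources used here. Whole reads were recovered in 32 libraries (100% of values within 0.01 reads) and used for the count tests. The male day 20 replicate 1 library could not be recovered and was left out of them.

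Values were tested as log2(value + 1) with limma 3.58.1 (trended, robust), 12 groups sharing 1 spread. Fold changes on this scale understate changes of low genes. P-values were adjusted by Benjamini-Hochberg over all features tested and called below 0.05 with a log2 difference beyond 0.5. Linear genes needed a mean of 10. CircRNAs needed a span of 50 nt and a mean of 1 in every group or 10 in a sample, and a pair of female day 50 libraries with identical back-splice reads was counted as 1 sample (32 fitted). Alternatives were edgeR 4.0.16 (802 higher, 783 lower linear genes), DESeq2 1.42.0 (873 and 725), other pseudocounts, filters and scalings, a replicate block, the day 10 libraries alone and each library left out. Scripts were tested on simulated data. P-values measure the spread between the labelled biological replicates.

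Named were the 12 largest linear differences per direction with a mean of at least 100 reads in the higher sex that held in both male libraries, every member of the yolk, dosage compensation and sex determination lists (1 is not reported here), up to 4 genes of each other list, and for circRNAs the 6 largest per direction and the 6 most abundant. Others were named after their values were seen. Lists (24, with 558 of 598 symbols matched) and members were chosen with earlier results of these data known. Further lists not described above gave 2 higher and 1 lower of 17 heat shock genes, 4 and 0 of 26 hormone genes, 0 and 2 of 11 hydrocarbon genes and 1 and 0 of 11 ovary genes. Coordinates are dm6 (1-based) with the Ensembl 115 annotation (BDGP6.54), and sequences were read from that Release 6 genome.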

Additional observations from a re-analysis of the deposited data

Results flagged for a closer look

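The sex difference (males minus females, log2) of genes given with values above differed between ages by limma's interaction term in 90 pairs of gene and age, 43 against day 0 and 47 against day 30. Over all genes tested the term called 6.36% against day 0 and 5.73% against day 30. Most of the genes were named for the size of their difference at day 10, which the term uses again. The 90 pairs are therefore a description and not a test of day 10. Each value below is the sex difference at day 10 minus that at the other age.

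Against day 0, storage and male fat body genes were more male at day 10 by 8.81 (Lsp1alpha), 3.31 (Lsp1beta), 5.52 (Lsp2), 8.20 (Obp99b), 2.78 (tobi), 2.47 (sxe2), 2.23 (to) and 1.58 (Cyp4d21). Lipid genes were more male by 1.57 (Npc2h), 1.31 (bmm) and 0.73 (ATPCL). Immune genes were more male by 5.74 (DptA), 5.62 (Dro), 4.25 (CecA2), 2.45 (PGRP-SC2), 1.23 (PGRP-SD), 1.22 (PGRP-SB1) and 0.90 (Tep4). Amylase and P450 genes were more male by 4.54 (Amy-p), 2.38 (Amy-d), 1.98 (Cyp309a1), 1.74 (Cyp313a1) and 1.42 (Cyp309a2), as were kl-2 (2.89), ple (0.83) and tim (0.55). The value was negative for roX2 (-2.62), roX1 (-2.53), phu (-4.43), Alp9 (-4.16), CG10073 (-3.69), CR44468 (-3.29), Nepl4 (-3.08), Root (-3.07), Ndg (-2.25), Cyp6d2 (-2.15), Obp56e (-1.63), Dup99B (-1.56), Obp83cd (-0.82), sug (-0.78), Mlp84B (-0.73), Mlp60A (-0.66) and Hsp83 (-0.56).

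Against day 30, the value was positive for Lsp1alpha (5.94), Lsp1beta (4.79), Lsp2 (6.91), Obp99b (4.80), tobi (3.78), to (1.99), ATPCL (1.02), bmm (0.96) and Npc2h (0.64). It was also positive for DptA (6.0), CecA1 (5.24), CecA2 (5.03), Dro (4.49), PGRP-SC2 (3.16), PGRP-SB1 (1.56), PGRP-SD (1.19) and Tep4 (0.64). Genes of spermatogenesis and others high in males gave 6.06 (CG10859), 5.89 (dj), 4.94 (CG12860), 4.74 (Mst84Db) and 4.37 (CR9284). The yolk genes were less female at day 10 than at day 30, by 3.94 (Yp1), 4.53 (Yp2) and 2.20 (Yp3), as was Obp99a (3.40). The others above 0 were Amy-p (2.96), Amy-d (0.52), Cyp309a1 (2.08), Cyp309a2 (1.58), roX1 (1.06), ple (0.95), Ndg (0.92), apolpp (1.04), Obp83cd (0.81) and dsx (0.56). The value was negative for phu (-2.11), Dup99B (-1.70), Nepl4 (-1.98), Alp9 (-1.66), CG10073 (-1.52), CR44468 (-1.35), Act57B (-1.32), Mlp60A (-0.88), Mlp84B (-0.80), Mhc (-0.67) and Ilp3 (-0.60).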

How the results depend on the processing

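The counts of linear calls stayed within 1.5 times under every alternative run except 1, since without the filter on low values 1300 genes were higher in males. Leaving out 1 library at a time gave 617 to 767 higher and 610 to 660 lower, and for the interaction 451 to 537 and 235 to 281 against day 0 and 497 to 619 and 74 to 93 against day 30. Replicate numbers did not pair the libraries (correlation 0.022 for number 1 and -0.013 for number 3), and a fit with age and replicate number as a block gave 721 higher and 618 lower linear genes and 3 higher and 22 lower circRNAs. For circRNAs the higher and lower counts were 18 and 48 with a pseudocount of 10, 0 and 0 with the day 10 libraries alone, 28 and 63 with scaling to total circRNA reads, 18 and 48 by edgeR, 23 and 45 by DESeq2, and 37 and 37 by DESeq2 with scaling to total circRNA reads, an alternative added after seeing the data. Leaving out 1 library gave 3 to 9 higher and 21 to 90 lower. Ratios to the host gave 23 higher with a pseudocount of 10, 5 higher with a circRNA mean of at least 10, and 3 to 13 higher and 9 to 94 lower without 1 library. The total of circRNA reads changed sign without male replicate 1 (1459, against a range down to -16378). The median difference of X-linked minus that of autosomal circles, -0.44, was -0.18 with a pseudocount of 10, -0.38 with scaling to total circRNA reads (also by DESeq2) and -0.49 to -0.33 without 1 library. The cause of these shifts was not tested. For the named genes, 907 of the alternative values kept a linear call and 53 lost it, and for the named circRNAs 109 kept it and 45 lost it, with 0 reversals. The depth of back-splice reads, with many circles under 10 reads per library, limits calls on single circles.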
